A study of Caenorhabditis elegans with 12 samples.

Results

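The furrow collagens of Caenorhabditis elegans are 6 cuticle collagens, encoded by dpy-2, dpy-3, dpy-7, dpy-8, dpy-9 and dpy-10, and were taken by name as the collagens of the annular furrows. They are 6 of the 22113 genes in the tables, and all 6 were expressed well above the filter on low counts in every group. The study measured polyadenylated RNA from whole larvae in 12 libraries, in 4 groups of 3. The groups were daf-2(e1370) larvae (strain CB1370) and daf-2(e1370);daf-42(ys54) larvae (strain LJ2703), called double mutants here, each harvested 52 h and 60 h after egg laying. All groups therefore carried the e1370 allele of daf-2, which encodes the insulin-like receptor and drives larvae toward dauer, the long-lived resting larva, at raised temperature. Eggs were laid at 15 °C and larvae were kept at 25 °C until harvest at late L2d, the stage before dauer. At 60 h the double mutant harvest contained live as well as dead larvae, in a share that the labels do not state, so genotype and larval death cannot be told apart at that time. The labels do not say that replicates came from separate cultures, so the p-values measure the spread between these libraries, which may be technical.

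The cuticle is rebuilt at every moult by the epidermis, which secretes collagens through successive waves of transcription. Annular furrows are the grooves that ring the body between the raised annuli, and loss of any of these 6 collagens removes them and leaves a short, dumpy animal. In larval moulting cycles these genes are transcribed early, ahead of many other cuticle collagens. Loss of furrow collagens is also known to turn on osmotic, detoxification and antimicrobial genes in the epidermis.

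The genes lie on 3 chromosomes (coordinates and exons of WBcel235). The dpy-2 gene (WBGene00001064) spans II:6714292-6715971 on the plus strand, and dpy-10 (WBGene00001072) spans II:6710149-6712227 on the minus strand. These neighbours point away from each other, with 2064 bases and 3 short annotated genes between them. On the X chromosome, all on the minus strand, are dpy-3 (WBGene00001065, X:2144605-2145647), dpy-8 (WBGene00001070, X:5148804-5150476) and dpy-7 (WBGene00001069, X:7536467-7537792). The dpy-9 gene (WBGene00001071) lies at IV:257403-259204 on the minus strand. Each was read from 1 transcript except dpy-9, whose second, shorter transcript took 16.1 of its estimated counts over the 12 libraries, against 41736 for the first. Exons of dpy-10 overlap T14B4.19 on the same strand, which took 10.2% to 13.97% of the estimated counts summed over both genes, so the dpy-10 values are uncertain to that extent. An exon of dpy-8 overlaps C31H2.14 on the opposite strand. The kit was stranded but the strand setting of the quantification is not given in the sources used here. C31H2.14 took 0.209% to 0.471% of the counts summed over both genes at 52 h and 1.24% to 10.7% at 60 h.

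Libraries held from 30011686 to 43519410 estimated counts. Transcripts of daf-42, the gene mutated in the second strain, stood at 1011, 1853 and 2078 CPM (estimated counts scaled to library size after TMM) in daf-2 at 52 h and at 879.1, 685.1 and 777 CPM in double mutants. At 60 h they stood at 969.1, 1960 and 532.3 CPM in daf-2 and at 272.9, 74.89 and 149.2 CPM in double mutants. The double mutant libraries were lower at both times, with a log2 fold change of -1.08 at 52 h (adjusted p = 0.838) and -2.80 at 60 h (adjusted p = 0.00277, edgeR). Libraries spread more at 60 h than at 52 h. The median SD of log2 CPM over all genes tested was 0.184 and 0.206 at 52 h and 0.363 and 0.374 at 60 h in daf-2 and double mutants.

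At 52 h all 6 furrow collagens were expressed at similar levels per length, and dpy-3 stood highest. In TPM, the deposited level per transcript length, daf-2 larvae at 52 h had 226.4 ± 24.7 for dpy-3, 140.8 ± 18.3 for dpy-9, 136.0 ± 9.97 for dpy-2, 132.4 ± 11.5 for dpy-8, 126.1 ± 18.4 for dpy-7 and 110.5 ± 8.65 for dpy-10 (mean ± SD, n = 3, as for all means below). The ranges of dpy-3 and dpy-9 did not overlap, whereas every later pair of neighbours in this order did. In double mutants at 52 h the mean TPM was 246.3 ± 62.5 for dpy-3, 155.7 ± 57.8 for dpy-8, 143.9 ± 42.7 for dpy-9, 136.4 ± 55.6 for dpy-7, 132.2 ± 44.5 for dpy-2 and 116.9 ± 36.8 for dpy-10, and no neighbours were apart beyond their ranges. By 60 h the whole set stood lower, and dpy-3 still had the highest mean. In daf-2 the 60 h means were 57.9 ± 24.6 TPM for dpy-3, 36.5 ± 9.92 for dpy-9, 34.7 ± 19.2 for dpy-8, 28.3 ± 8.61 for dpy-2, 28.2 ± 8.74 for dpy-7 and 24.4 ± 9.53 for dpy-10, with every range overlapping the next. In double mutants they were 67.2 ± 47.0 TPM for dpy-3, 54.2 ± 7.58 for dpy-9, 45.9 ± 3.04 for dpy-2, 45.8 ± 10.0 for dpy-7, 31.3 ± 7.31 for dpy-10 and 26.6 ± 20.9 for dpy-8. Only dpy-7 and dpy-10 were apart beyond their ranges in that order. The sum over the 6 genes ran from 841.8 to 925.7 TPM in daf-2 and from 612.8 to 1144 TPM in double mutants at 52 h, and from 146.4 to 294.7 and from 172.1 to 329.1 TPM at 60 h.

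**Figure D1:**
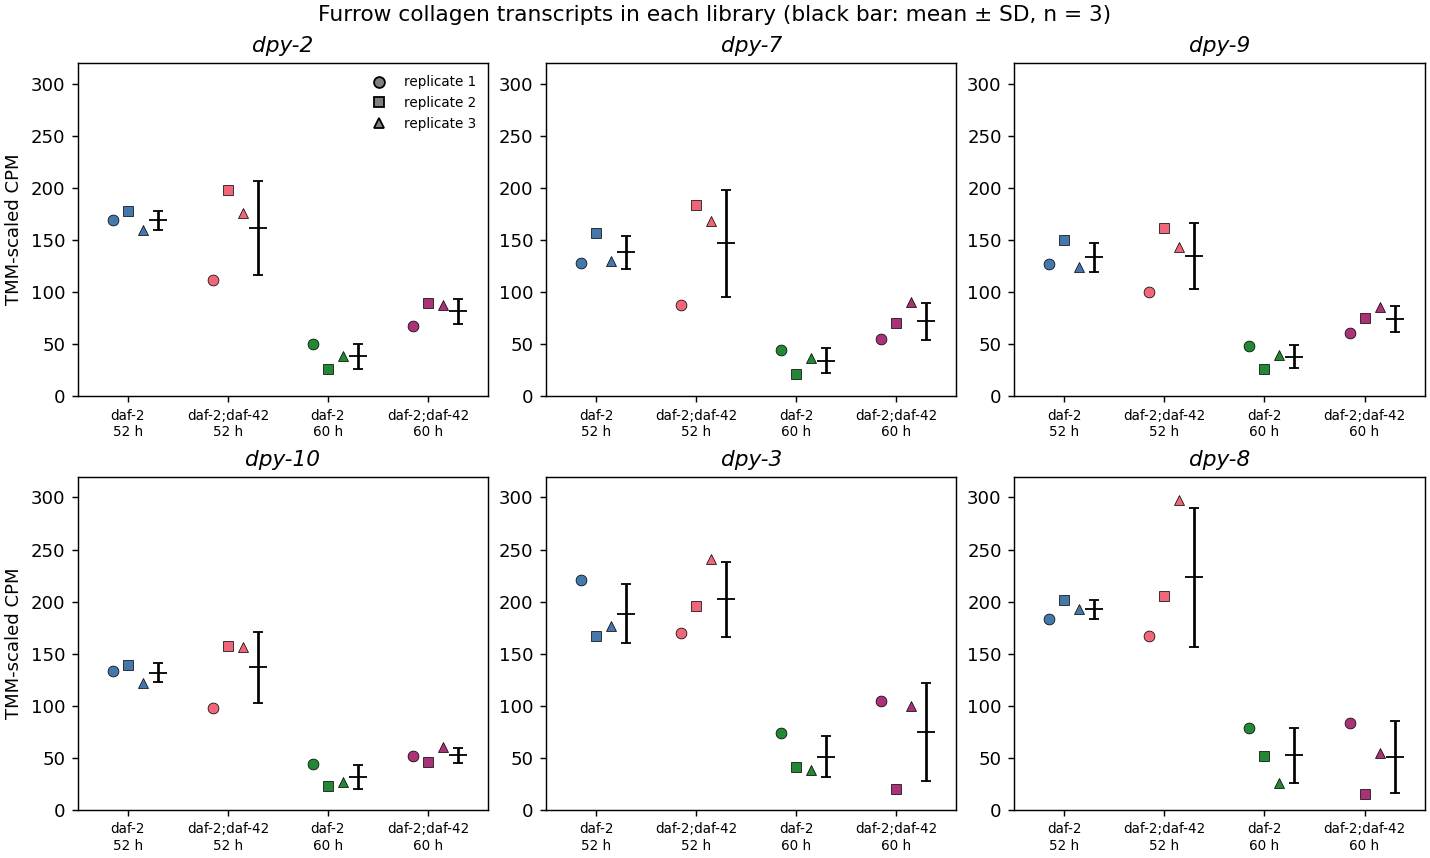
Each panel plots 1 furrow collagen, with the TMM-scaled CPM on the y axis and the 4 groups on the x axis. Symbols are single libraries and black bars are the mean ± SD (n = 3). In daf-2 every 60 h library lies below every 52 h library for all 6 genes, and at 60 h dpy-3 and dpy-8 scatter most in double mutants, from 20.06 to 104.2 and from 14.70 to 83.51 CPM.

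The first comparison asked how the furrow collagens moved through late L2d in daf-2 larvae on the way to dauer. All 6 fell between 52 h and 60 h, by 3.5-fold to 4.4-fold, and no 60 h library reached any 52 h library. The gene dpy-7, whose product is a common marker of furrows, stood at 128.0, 156.7 and 129.5 CPM at 52 h and at 44.08, 21.01 and 36.92 CPM at 60 h. For dpy-2 the libraries held 168.8, 178.2 and 159.3 CPM at 52 h and 50.18, 26.10 and 38.35 CPM at 60 h. Its head-to-head neighbour dpy-10, known for roller alleles and as a marker in genome editing, had 133.5, 139.5 and 121.5 CPM at 52 h and 44.17, 22.89 and 26.35 CPM at 60 h. In these 3 genes the 52 h libraries lay close together, and replicate 1 was the highest of the 60 h libraries. The dpy-9 gene, whose loss is known to switch on the osmotic and antimicrobial response, had 126.8, 149.6 and 124.2 CPM at 52 h and 48.27, 26.01 and 39.31 CPM at 60 h. The dpy-3 libraries ran at 220.5, 167.4 and 176.8 CPM at 52 h and at 73.87, 41.12 and 38.23 CPM at 60 h. For dpy-8 the values were 183.1, 201.5 and 193.2 CPM at 52 h and 78.96, 51.77 and 26.15 CPM at 60 h. Replicate 3 was the lowest 60 h library for dpy-3 and dpy-8, and replicate 2 was the lowest for the other 4.

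The log2 fold change was -2.14 for dpy-2 (SE 0.28, adjusted p = 9.74e-05, edgeR quasi-likelihood test with Benjamini-Hochberg adjustment over 16371 genes, as for all adjusted p-values below unless another tool is named). It was -2.08 for dpy-10 (SE 0.28, adjusted p = 0.000113), -2.02 for dpy-7 (SE 0.33, adjusted p = 0.000535) and -1.82 for dpy-9 (SE 0.26, adjusted p = 0.000222). The SE was larger for dpy-3, which fell by 1.88 on the log2 scale (SE 0.48, adjusted p = 0.00923), and for dpy-8, which also fell by 1.88 (SE 0.53, adjusted p = 0.0144). All 6 members were called lower, where 16.2% of all genes tested were called lower, and all 6 had groups that did not overlap, where 23.1% of all genes had lower groups without overlap. The median log2 fold change of the 6 was -1.95, against 0.07 over all genes. All 6 calls held in every alternative run, including each fit without 1 library.

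In double mutants, whose later harvest contained dead larvae, all 6 furrow collagens also fell between 52 h and 60 h, by 1.8-fold to 4.4-fold. The largest fall was that of dpy-8, from 166.6, 205.6 and 297.3 CPM at 52 h to 83.51, 14.70 and 54.25 CPM at 60 h, a log2 fold change of -2.13 (SE 0.53, adjusted p = 0.00918). The dpy-3 gene went from 169.5, 195.3 and 241.3 CPM to 104.2, 20.06 and 99.22 CPM, a log2 fold change of -1.44 (SE 0.48, adjusted p = 0.0311). For both genes replicate 2 at 60 h was by far the lowest library. The dpy-10 gene went from 97.69, 157.7 and 155.9 CPM to 51.52, 45.49 and 59.96 CPM, a log2 fold change of -1.39 (SE 0.27, adjusted p = 0.00249). The other 3 genes fell by 1.8-fold to 2.0-fold. Libraries of dpy-7 held 87.54, 184.0 and 168.6 CPM at 52 h and 54.93, 70.43 and 90.66 CPM at 60 h, a log2 fold change of -1.03 (SE 0.33, adjusted p = 0.0259). Those of dpy-2 held 111.2, 197.6 and 175.9 CPM at 52 h and 67.76, 89.25 and 88.04 CPM at 60 h, a log2 fold change of -0.98 (SE 0.27, adjusted p = 0.0144). Those of dpy-9 held 99.83, 161.8 and 143.0 CPM at 52 h and 60.60, 75.14 and 85.63 CPM at 60 h, a log2 fold change of -0.87 (SE 0.26, adjusted p = 0.02). Replicate 1 was the lowest 52 h library for all 6 genes, and only for dpy-7 did the time points overlap. All 6 were called lower, where 18.6% of all genes tested were, and 5 had groups without overlap, where 26.1% of all genes had lower groups without overlap. The median of the 6 was -1.21, against 0.00 over all genes. The calls of dpy-8 and dpy-10 held in every fit without 1 library. Those of dpy-2, dpy-3, dpy-7 and dpy-9 were lost without replicate 2 or replicate 3 of the 52 h double mutant libraries (log2 fold changes from -1.46 to -0.72, adjusted p from 0.0558 to 0.0927), and that of dpy-7 also without replicate 1 or 2 of the 60 h libraries (log2 fold changes -0.86 and -1.01, adjusted p = 0.0607 and 0.0692). With single transcripts in place of genes dpy-3, dpy-7 and dpy-9 were lost (adjusted p = 0.066, 0.0754 and 0.0624), and in a fit of only these groups dpy-3 was lost (adjusted p = 0.067).

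The genotypes were then compared at each time. At 52 h no furrow collagen differed in the test. The log2 fold changes of double mutants over daf-2 lay between -0.06 for dpy-2 (95% interval -0.64 to 0.52) and 0.21 for dpy-8 (95% interval -0.89 to 1.32), and the groups overlapped for all 6 genes, where 8.53% of all genes had higher and 9.65% lower groups without overlap. With edgeR 0 of 6 were called, 0 had an unadjusted p under 0.05, and DESeq2 and limma each called 0, where edgeR called 0.635% of all genes. The intervals leave room for a difference of about 1.5-fold in dpy-2, dpy-9 and dpy-10 and for more in the others, so small differences were not detectable.

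At 60 h, with live and dead larvae in the double mutant harvest, 4 furrow collagens were higher in double mutants by 1.7-fold to 2.1-fold and dpy-3 and dpy-8 were not called. The log2 fold change was 1.096 for dpy-2 (SE 0.27, adjusted p = 0.0104), 1.08 for dpy-7 (SE 0.33, adjusted p = 0.0248), 0.96 for dpy-9 (SE 0.26, adjusted p = 0.0153) and 0.75 for dpy-10 (SE 0.27, adjusted p = 0.0466). In CPM these 4 genes had no overlap between the genotypes. For dpy-2 the highest daf-2 library held 50.18 CPM and the lowest double mutant library 67.76 CPM, whereas for dpy-10 these stood at 44.17 and 45.49 CPM. In TPM dpy-9 and dpy-10 did overlap. Their highest daf-2 libraries held 47.95 and 35.09 TPM, and their lowest double mutant libraries 47.21 and 22.9 TPM. The dpy-3 gene had a log2 fold change of 0.55 (SE 0.47, 95% interval -0.48 to 1.57, adjusted p = 0.372), and dpy-8 had one of -0.04 (SE 0.51, 95% interval -1.15 to 1.07, adjusted p = 0.956). In CPM, for both genes, replicate 2 of the double mutants lay below every daf-2 library while replicate 1 lay above every one. In TPM replicate 1 did not do so for dpy-8, at 47.95 TPM against 51.36 TPM in replicate 1 of daf-2. The 4 calls of 6 stand against 17.4% of all genes called higher, and the 4 genes without overlap against 20.1% of all genes. The median of the 6 was 0.86, against -0.01 over all genes.

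These calls at 60 h depended on single libraries and settings. The call of dpy-10 was lost in 15 of 26 alternatives, among them the model with a replicate block (log2 fold change 0.76, adjusted p = 0.0727). Without replicate 3 of the double mutants only dpy-2 was called, with dpy-7 at 0.88 (adjusted p = 0.0922) and dpy-9 at 0.84 (adjusted p = 0.0591), and without replicate 2 of daf-2 dpy-7 stood at 0.89 (adjusted p = 0.0807). Without replicate 2 of the double mutants dpy-3 was called higher, with a log2 fold change of 1.03 (adjusted p = 0.0248), and dpy-8 stood at 0.42. On deposited TPM values the median of all genes at 60 h moved to -0.27 (limma on log2(TPM + 1)). The tested log2 differences were 0.716 for dpy-2, 0.699 for dpy-7, 0.579 for dpy-9, 0.386 for dpy-10, -0.109 for dpy-3 and -0.578 for dpy-8. None of the 6 was called (adjusted p from 0.0507 to 0.89, limma). The median was subtracted only after the test. The differences relative to it were 0.98 for dpy-2, 0.97 for dpy-7, 0.85 for dpy-9, 0.66 for dpy-10, 0.16 for dpy-3 and -0.31 for dpy-8.

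Whether the fall over time differed between the genotypes was tested as an interaction. With edgeR 0 of 6 furrow collagens were called, where 9.52% of all genes were. The difference between the genotype effects at 60 h and 52 h was 1.16 for dpy-2 on the log2 scale (SE 0.38, unadjusted p = 0.0097, adjusted p = 0.0683), 0.99 for dpy-7 (SE 0.46, adjusted p = 0.147), 0.95 for dpy-9 (SE 0.36, adjusted p = 0.0982) and 0.69 for dpy-10 (SE 0.38, adjusted p = 0.21). It was 0.44 for dpy-3 (SE 0.66, adjusted p = 0.651) and -0.25 for dpy-8 (SE 0.72, adjusted p = 0.817). The unadjusted p was under 0.05 for 3 genes, dpy-2, dpy-7 and dpy-9, as for 33.5% of all genes. DESeq2 called 2, dpy-2 (adjusted p = 0.0194) and dpy-9 (adjusted p = 0.0465), where it called 20.9% of all genes, and limma on TPM called 0.

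**Figure D2:**
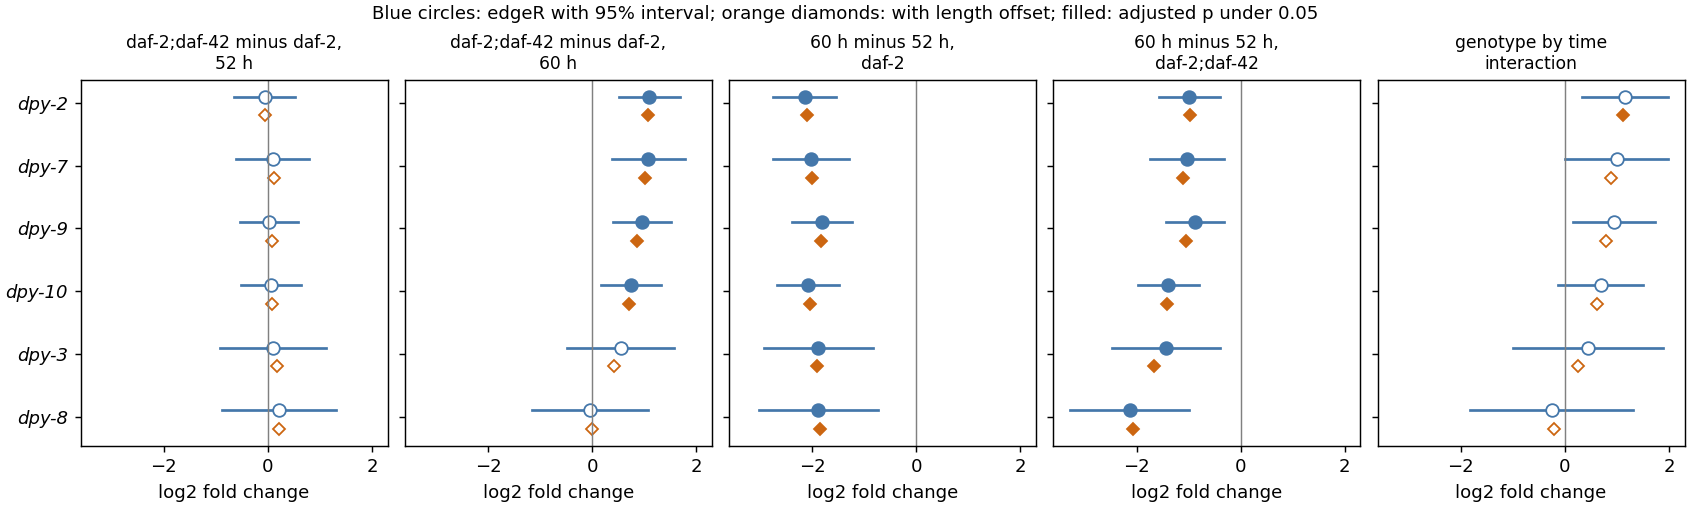
Log2 fold changes of each furrow collagen in the 4 comparisons and the interaction, with edgeR estimates as blue circles with 95% intervals and estimates after an offset for transcript length as orange diamonds. Filled symbols have an adjusted p under 0.05, and the 2 estimates lie close together for every gene, with filled circles for all 6 genes in both time comparisons and for 4 genes in the genotype comparison at 60 h.

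Fold changes over all genes followed transcript length at 60 h, so an offset for a trend with length was also fitted. The Spearman rho across genes between log2 fold change and length was -0.459 for genotype at 60 h and -0.541 for time in double mutants, against -0.046 for time in daf-2. It was 0.266, of the opposite sign, for genotype at 52 h and -0.5 for the interaction. With the offset the same furrow collagens were called in all 4 comparisons of groups, 0 between genotypes at 52 h (1.31% of all genes called), 4 higher at 60 h (19.0% of all genes), 6 lower over time in daf-2 (21.7%) and 6 lower over time in double mutants (16.6%). In the interaction dpy-2 alone was then called (1.12, adjusted p = 0.0366), where 15.3% of all genes were called.

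Within a library dpy-2, dpy-7 and dpy-9 kept nearly constant proportions, and dpy-8 did so least. Genes were set apart here after their values were seen, as a description. The ratio of TPM to that of dpy-2 ranged over the 12 libraries from 0.859 to 1.16 for dpy-7 and from 0.983 to 1.34 for dpy-9. For dpy-10 it ranged from 0.531 to 0.925, a 1.74-fold range, for dpy-3 from 0.335 to 2.36, a 7.06-fold range, and for dpy-8 from 0.141 to 1.69, a 12.01-fold range. The lowest ratio of dpy-3, dpy-8 and dpy-10 fell in 1 library, replicate 2 of the double mutants at 60 h. Without that library the range was 1.41 to 2.36 for dpy-3, 1.68-fold, 0.526 to 1.69 for dpy-8, 3.21-fold, and 0.710 to 0.925 for dpy-10, 1.30-fold. The wide range of dpy-3 thus rested on that library, and dpy-8 stayed the most variable of the 6 without it. In replicate 2 of the double mutants at 60 h dpy-3 held 14.4 TPM, dpy-8 6.06 TPM and dpy-10 22.9 TPM, where the other 2 libraries of the group held 36.1 and 34.9 TPM of dpy-10. The same library held 43.1 TPM of dpy-2, 38.4 of dpy-7 and 47.2 of dpy-9, the lowest values of that group but less than 1.5-fold below its highest. The next lowest dpy-8 ratios were 0.526 in replicate 3 of the double mutants and 0.582 in replicate 3 of daf-2, both at 60 h, while dpy-3 stood at 1.68 and 1.49 times dpy-2 in these libraries.

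**Figure D3:**
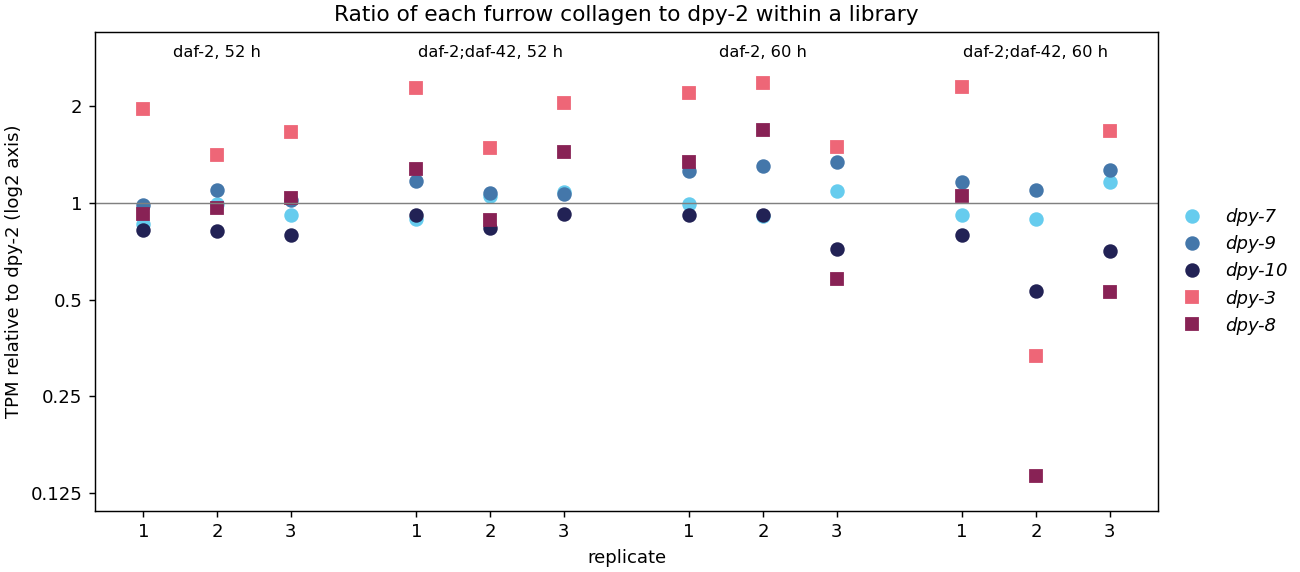
TPM of each furrow collagen divided by that of dpy-2 in the same library (y axis, log2 scale), for the 12 libraries in their 4 groups (x axis, replicate number). The dpy-7, dpy-9 and dpy-10 circles stay between 0.531 and 1.34, while the dpy-3 and dpy-8 squares drop to 0.335 and 0.141 in replicate 2 of the double mutants at 60 h, where dpy-10 is also at its lowest.

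Profiles over the 12 libraries were compared by the root mean square difference between 2 genes' log2 CPM after each was centred on its mean. Small values mean like profiles, and the 12 libraries share their 4 groups, so the measure is a description. Among dpy-2, dpy-7, dpy-9 and dpy-10 the pairs differed by 0.136 to 0.257, dpy-3 differed from dpy-8 by 0.365, and pairs across these sets differed by 0.545 to 0.929. Without replicate 2 of the double mutants at 60 h the values were 0.131 to 0.225, 0.366 and 0.214 to 0.579, and dpy-3 then lay nearer to dpy-10 (0.214) and dpy-2 (0.27) than to dpy-8. The distance of dpy-3 from the other 4 thus rested largely on 1 library, whereas dpy-8 lay at least 0.366 from every other member without it. Over all 12 libraries dpy-2 was the nearest to dpy-7 of the 16370 other genes tested, although the genes lie on different chromosomes, and dpy-9 was the third nearest to dpy-7. The head-to-head neighbours dpy-2 and dpy-10 were 0.217 apart, which put dpy-2 at rank 21 among the genes nearest to dpy-10. The nearest member to dpy-3 was dpy-8, at rank 15. Ranks depend on the gene they are counted from, and from dpy-2 the gene dpy-7 stood at rank 6 and dpy-10 at rank 48. The farthest member was dpy-8 counted from dpy-9, at rank 7713.

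**Figure D4:**
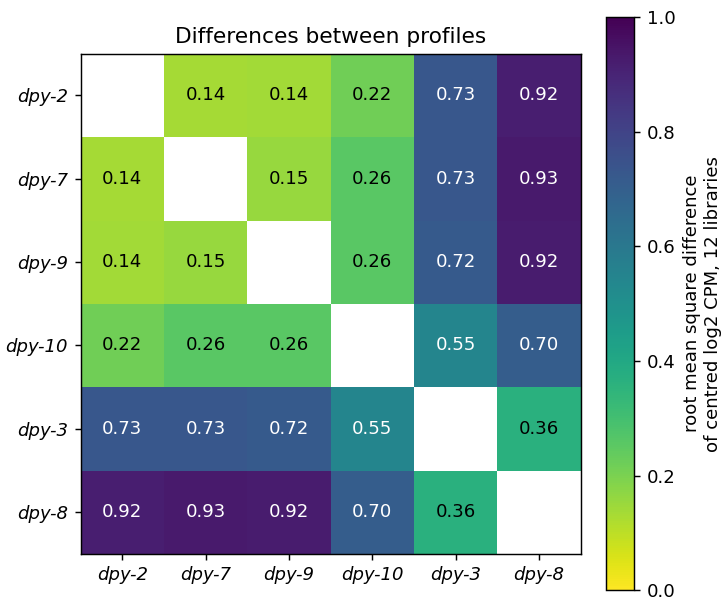
Root mean square difference between the centred log2 CPM profiles of each pair of furrow collagens over 12 libraries (colour and printed value, where low values mean like profiles). Pairs among dpy-2, dpy-7, dpy-9 and dpy-10 lie at 0.14 to 0.26, dpy-3 with dpy-8 at 0.36, and pairs across these sets at 0.55 to 0.93, values that fall to 0.214 to 0.579 without replicate 2 of the double mutants at 60 h.

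Against the mean profile of all 6, the 8 nearest of 9007 other genes whose mean log2 CPM reached 3 were rml-4 (root mean square difference 0.079), swip-10 (0.154), the cuticle collagen col-128 (0.16), the Patched-related gene ptr-4 (0.166), which is needed for moulting, hhat-1 (0.188), alh-3 (0.188), T14B4.19 (0.191), which shares exons with dpy-10, and sups-1 (0.194). The members themselves stood at 0.147 for dpy-10, 0.371 for dpy-2, 0.376 for dpy-9, 0.386 for dpy-7, 0.519 for dpy-3 and 0.743 for dpy-8 from the mean of the other 5. Only 1 other gene was nearer than dpy-10, and 1657 were nearer than dpy-8.

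Among other collagens that shape the body but lie outside the furrows, few passed the test. Of 14 such genes 13 were tested, and the lists were not tested against each other. In daf-2 over time 3 fell, sqt-3 (log2 fold change -1.74, adjusted p = 0.0391), lon-3 (-1.38, adjusted p = 0.00589) and rol-8 (-1.36, adjusted p = 0.0292), and the median of the 13 was -0.57, where 16.2% of all genes fell. In double mutants sqt-3 (-2.06, adjusted p = 0.0192) and rol-8 (-1.18, adjusted p = 0.047) fell and the median was -0.82, where 18.6% of all genes fell, and with a replicate block 6 of the 13 were called. Between genotypes 0 of 13 were called at 52 h or 60 h, 0 had an unadjusted p under 0.05 and DESeq2 and limma called 0, with medians of 0.12 and 0.01. The spread between libraries of some of them was wide, as for dpy-13 with a log2 fold change of -0.02 and an SE of 0.94 at 60 h. Levels were uneven, as rol-8 and sqt-3 had means of 7973 and 2088 CPM in daf-2 at 52 h. The other tested genes lay there between 0.41 CPM (bli-2) and 25.8 CPM (dpy-13), so the summed level mostly followed rol-8 and sqt-3. The sum over the list ran from 9027 to 10890 TPM in daf-2 and from 8658 to 14010 TPM in double mutants at 52 h. At 60 h it ran from 1642 to 4642 and from 1274 to 5953 TPM. The lowest library of each 60 h group was the one in which dpy-8 was lowest. Of these 13 genes, 8 had profiles nearer to the mean of dpy-3 and dpy-8 than to that of the other 4 furrow collagens, where 19.4% of the 9007 other genes did. Without replicate 2 of the double mutants at 60 h it was 10 of 13, against 38.9% of the other genes. The markers of body-wall muscle and of pharynx muscle showed this too, with 3 of 4 genes nearer to dpy-3 and dpy-8 in each, with and without that library. Of the epidermis markers 1 of 6 were nearer with that library and 4 of 6 without it. The counts were 1 and 3 of 5 for intestine, 0 and 1 of 6 for neurons and 1 and 1 of 4 for germline. Nearer genes could still be far from both sets, as unc-54 was at 1.194 from dpy-3 and dpy-8 and 1.473 from the other 4.

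Enzymes that modify and crosslink collagen moved in both directions. Of 15 listed genes 14 were tested. In daf-2 over time 4 fell and 2 rose, where 16.2% of all genes fell and 18.5% rose, and the largest falls were those of dpy-11, a thioredoxin-like protein of the epidermis (-1.72, adjusted p = 0.000203), and of phy-2 (-1.59, adjusted p = 0.000223) and dpy-18 (-1.39, adjusted p = 0.00155), the catalytic subunits of prolyl 4-hydroxylase. The peroxidase gene mlt-7 (1.31, adjusted p = 0.000645) and doxa-1 (1.21, adjusted p = 0.000442), for a dual oxidase maturation factor, rose. In double mutants over time 7 fell, led by the disulfide isomerase gene pdi-2 (-1.61, adjusted p = 0.0222), and 3 rose, where 18.6% of all genes fell and 22.4% rose. At 60 h 3 were higher in double mutants, tsp-15 (0.77, adjusted p = 0.00955), phy-2 (0.75, adjusted p = 0.0251) and dpy-11 (0.71, adjusted p = 0.0393). The proteases bli-4 (-0.85, adjusted p = 0.0331) and dpy-31 (-0.60, adjusted p = 0.0358) were lower, but not with the length offset (adjusted p = 0.494 and 0.294), where without it 17.4% of all genes were higher and 34.4% were called in either direction. With the offset 6 of the 14 were higher and 0 lower, where 19.0% of all genes were higher and 15.9% lower. Added were dpy-18 (0.55, adjusted p = 0.0388), duox-2 (1.96, adjusted p = 0.00296) and bli-3 (adjusted p = 0.0271), and bli-3 turned from -0.49 to 0.63. The duox-2 gene lay near the floor, at 0.59 CPM in daf-2 and 0.97 CPM in double mutants at 60 h. Without the offset it stood at 0.74 (adjusted p = 0.202). The profiles of dpy-11 and phy-2 lay 0.208 and 0.294 from the mean of dpy-2, dpy-7, dpy-9 and dpy-10, and 0.679 and 0.851 from that of dpy-3 and dpy-8. None of the 14 was called at 52 h between genotypes by edgeR, DESeq2 or limma, and 0 had an unadjusted p under 0.05.

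Among 13 transcription regulators of epidermis and moulting, nhr-23, a nuclear receptor needed for every moult, fell over time in both genotypes, with log2 fold changes of -1.37 in daf-2 (adjusted p = 0.00912) and -2.03 in double mutants (adjusted p = 0.00137). In daf-2 the nuclear receptor nhr-25 rose (1.11, adjusted p = 0.0183) and the other 11 were not called, where 16.2% of all genes fell and 18.5% rose. In double mutants over time 7 fell, against 18.6% of all genes, led by the period homologue lin-42 (-2.61, adjusted p = 0.00319), myrf-1 (-2.34, adjusted p = 0.00491) and nhr-85 (-2.08, adjusted p = 0.00483). At 60 h nhr-25 (-1.15, adjusted p = 0.0192) and elt-3 (-0.69, adjusted p = 0.0325) were lower in double mutants, where 34.4% of all genes were called in either direction. At 52 h 0 were called between genotypes by edgeR, DESeq2 or limma, and 0 had an unadjusted p under 0.05. Of the 13, 7 had profiles nearer to the mean of dpy-3 and dpy-8 than to that of the other 4, where 19.4% of the 9007 other genes did. Among them were nhr-23 (0.391 against 0.72) and myrf-1 (0.495 against 0.982). Without replicate 2 of the double mutants at 60 h it was 12 of 13, where the share of the other genes also rose, to 38.9%. These 13 regulators were not held to the mean log2 CPM of 3 that the 9007 genes reached.

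Genes of the epidermal response to damage and furrow loss were higher in double mutants at 60 h, at the same time as the 4 furrow collagens. Of 19 tested, 12 were called higher and 0 lower, where 17.4% of all genes were higher, with a median log2 fold change of 1.80. The antimicrobial peptide genes cnc-4 (6.40, adjusted p = 1.96e-05), nlp-29 (5.39, adjusted p = 1.73e-05) and cnc-2 (4.999, adjusted p = 0.000161) led, and the osmotic response gene gpdh-1 had a log2 fold change of 1.25 (adjusted p = 0.0483). Their summed level was 9971 to 21520 TPM in double mutants at 60 h and 2353 to 4320 TPM in the other 3 groups, and the highest library was the one with the least dpy-3 and dpy-8. At 52 h 0 of 19 were called between genotypes by edgeR, 2 had an unadjusted p under 0.05, and DESeq2 and limma each called 1. In the interaction 6 were called higher, against 5.58% of all genes, led by cnc-4 (6.24, adjusted p = 0.00059), cnc-2 (5.07, adjusted p = 0.00376) and nlp-29 (4.54, adjusted p = 0.00154). In daf-2 over time 3 rose and 5 fell, against 18.5% and 16.2% of all genes, among them snf-12 (2.94, adjusted p = 4.84e-06), hmit-1.1 (-1.87, adjusted p = 0.00801) and cnc-2 (-1.83, adjusted p = 0.0327). In double mutants over time 14 rose and 2 fell, against 22.4% and 18.6% of all genes, led by cnc-1 (4.90, adjusted p = 0.000196), cnc-4 (4.81, adjusted p = 8.09e-05) and nlp-29 (3.52, adjusted p = 0.000186). The cnc-1 values were near the floor, with means of 0.0459 CPM at 52 h and 1.432 CPM at 60 h. Those of cnc-4 were 24.01 and 672.2 CPM.

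The libraries came from whole larvae, so fewer epidermal cells and less RNA per cell cannot be told apart. The 6 epidermis markers summed to 373.9 to 437.0 TPM in daf-2 and 306.9 to 461.3 TPM in double mutants at 52 h, and to 106.4 to 206.9 and 105.3 to 175.7 TPM at 60 h. The same 3 of 6 fell over time in both genotypes, che-14, wrt-2 and wrt-10, where 16.2% of all genes fell in daf-2 and 18.6% in double mutants. The epidermal regulators, which are also on the list of transcription regulators, were not called over time in daf-2. They were lin-26 (-0.19, adjusted p = 0.729), elt-1 (-0.15, adjusted p = 0.411) and elt-3 (0.22, adjusted p = 0.489). In double mutants edgeR called none of them over time either, with lin-26 at -0.83 (adjusted p = 0.0757), elt-1 at -0.22 (adjusted p = 0.188) and elt-3 at -0.55 (adjusted p = 0.0635). With the length offset elt-3 was called there (-0.57, adjusted p = 0.0427). Of the 6 markers DESeq2 called 4 there and limma on TPM 6, where the limma median over all genes was -0.336. At 60 h wrt-10 (0.90, adjusted p = 0.0258) was higher and elt-3 lower in double mutants. Body-wall muscle markers summed to 231.2 to 1211 TPM in double mutants at 60 h and 1342 to 6857 TPM in daf-2. Germline markers summed to 28.7 to 53.9 against 68.3 to 177.9 TPM. In each list 2 of 4 were lower, where 34.4% of all genes were called in either direction. With the length offset body-wall muscle kept 2, with unc-54 moving from -2.17 to -0.72 and unc-15 from -1.64 to -0.87. Germline kept 1, as glh-1 moved from -1.13 (adjusted p = 0.033) to -0.51 (adjusted p = 0.191). With the offset 15.9% of all genes were lower. Sums of the pharynx muscle (16.4 to 90.2 against 55.2 to 257.9 TPM), intestine (141.9 to 444.4 against 353.9 to 880.5 TPM) and neuron markers (501.2 to 731.5 against 698.6 to 787.9 TPM) overlapped. Replicate 2 of the double mutants at 60 h had the lowest sum of all 12 libraries for each of these 6 marker lists. No marker was at 0 in any group, and the part of these cell types in the furrow collagen results was not tested.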

How the data were processed

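Per the file headers, the authors deposited 1 table per library with an estimated count and a TPM value for each of 36172 transcripts. The submitters' processing notes name kallisto 0.46.1 and WBcel235, with no role given. Gene values are sums over transcripts, assigned with the WBcel235 annotation (31502 matched exactly, 4581 by sequence name, 89 unmatched), which gave 22113 genes, and estimated counts were rounded.

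All 12 libraries entered 1 quasi-likelihood fit in edgeR 4.0.16 (R 4.3.3) with TMM scaling, filterByExpr and a mean per group, and 16371 genes were tested in 4 comparisons and the interaction. A gene was called at a Benjamini-Hochberg adjusted p below 0.05, and its SE is the fold change divided by the root of F. DESeq2 1.42.0 and limma 3.58.1 (log2 of deposited TPM plus 1) were alternatives. Others were a replicate block, RLE and upper-quartile scaling, count filters, a length offset (lowess, span 0.3), a minimum fold change of 1.5, single transcripts, fits of only the groups compared, and fits without 1 library. Added after seeing the data were a sum of dpy-10 and T14B4.19, which kept every dpy-10 call as it was, and proportions and profiles without replicate 2 of the double mutants at 60 h. Deviations from the group means of same-numbered libraries correlated above 0.1 in all 3 pairs for genotype at 52 h (0.249, 0.136 and 0.198). They also did so for time in the double mutants (0.109, 0.408 and 0.136), although replicate 3 there matched another number best. The other pairs of groups did not reach this in all 3 pairs. The labels give no basis for pairing, and the main fit does not use the numbers. The replicate block spanned all 4 groups, so a pairing within these comparisons alone was not tested. Group overlap was read from TMM-scaled CPM, and profiles from log2 CPM with a prior count of 2. The code was tested on simulated data. Pairs of replicates differed far beyond sampling noise (chi-square over degrees of freedom of 14.6 to 512.5), and none was a duplicate.

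The members and lists were chosen with earlier results of these data known. Named genes are the 6 members, the 8 genes nearest their mean profile, up to 3 called genes of each list with the largest fold change per comparison, and daf-42. Genes named beside these, such as gpdh-1, lin-26, elt-1, dpy-13, the enzyme genes added with the length offset, genes named for likeness and markers, were picked after their values were seen. Of a list of dauer cuticle genes, col-6 had no match and was not analysed here. Promoter sequences were not analysed here.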

Additional observations from a re-analysis of the deposited data

How the results depend on the processing

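All 6 falls over time in daf-2 held under every alternative, from 6 to 6 calls without 1 library, and 52 h genotype calls stayed at 0 to 0. Higher calls at 60 h, 4 in all, became 0 with a minimum fold change of 1.5 and with limma on TPM (filtered or not), 1 with limma and a pseudocount of 0.1, 1 with only the groups compared, and 1 to 5 without 1 library. Falls over time in double mutants became 2 with the minimum fold change, 5 with only the groups compared, 3 of 6 with single transcripts, and 2 to 6 without 1 library. Interaction calls became 2 with DESeq2, 1 with the length offset and 0 to 2 without 1 library, where dpy-2 and dpy-9 were called without replicate 1 of the double mutants at 60 h. With the length offset 2 of the 8 nearest genes were shared. Signs turned only where no call stood. At 52 h dpy-9 moved from 0.01 to -0.030 (upper quartile), -0.0095 and -0.0099 (limma, pseudocounts 1 and 0.1) and -0.0072 (single transcripts). At 60 h dpy-3 moved to -0.11 and -0.12 (limma), and in the interaction to -0.20 and -0.22, and dpy-8 at 60 h to 0.046 (single transcripts). Without 1 library the 52 h genotype values ranged from -0.23 to 0.15 for dpy-2, from -0.058 to 0.23 for dpy-3, from -0.11 to 0.35 for dpy-7, from -0.060 to 0.39 for dpy-8, from -0.14 to 0.19 for dpy-9 and from -0.052 to 0.26 for dpy-10, and dpy-8 ranged from -0.59 to 0.42 at 60 h and from -0.81 to 0.21 in the interaction. The causes were not tested. Counts of all genes called moved at 52 h from 104 to 269 (DESeq2), 214 (length offset), 49 (minimum fold change), 208 (only the groups compared) and 39 to 125 without 1 library. At 60 h they moved from 5626 to 1945 (minimum fold change), 2294 (only the groups compared) and 3013 to 7587. Over time they moved from 5688 to 3131 in daf-2 and from 6720 to 2643 in double mutants (minimum fold change), with 4429 to 6462 and 3624 to 8359 without 1 library. In the interaction they moved from 1558 to 921 (replicate block), 3414 (DESeq2), 2501 (length offset), 442 (minimum fold change) and 643 to 4670.

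Replicate numbers did not pair the samples across all 4 groups: 11 of 18 same-numbered pairs correlated above 0.1 (from -0.627 to 0.408), and in 10 of 18 the own number matched best. With a replicate block 3 members were called at 60 h, without dpy-10 (0.76, adjusted p = 0.0727), and no other member call changed. A search of promoters for motifs was not run. With 3 libraries a group the 95% intervals of the members span more than a 1.5-fold difference.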

Other observations

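While the furrow collagens fell, collagens of the dauer and L2d cuticle rose. Of 4 tested genes 3 rose between 52 h and 60 h in each genotype, where 18.5% of all genes rose in daf-2 and 22.4% in double mutants, with log2 fold changes of 3.48 (daf-2) and 3.79 (double mutants) for col-183 (adjusted p = 8.2e-05 and 8.09e-05), 1.72 and 1.88 for col-2 (adjusted p = 0.00626 and 0.0052) and 1.55 and 1.66 for col-40 (adjusted p = 0.00852 and 0.00735, edgeR). The fourth gene, cut-1, went the other way, with log2 fold changes of -0.876 in daf-2 and -0.88 in double mutants. It was not called by edgeR (adjusted p = 0.137 and 0.112), whereas DESeq2 and limma each called all 4 genes over time in double mutants. Between genotypes 0 of 4 were called at 52 h or 60 h, 0 had an unadjusted p under 0.05 and DESeq2 and limma called 0. Their summed level ran from 15530 to 26520 TPM over the 6 libraries at 52 h and from 39070 to 62970 TPM at 60 h, so the lowest 60 h library stood above the highest 52 h library. The comparisons over time in the 2 genotypes share no library.

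The epidermis marker wrt-10, which encodes a Hedgehog-like secreted protein, lay 0.076 from the mean profile of dpy-2, dpy-7, dpy-9 and dpy-10 over the 12 libraries. It fell over time by 2.04 on the log2 scale in daf-2 (adjusted p = 0.000144) and fell by 1.15 in double mutants (adjusted p = 0.00752). Its relative wrt-2 lay nearer to dpy-3 and dpy-8 (0.299) than to the other 4 (0.758). Both were singled out after their values were seen.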
